A study of Mus musculus with 24 samples.

Results

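AGO2 knockout cells were compared with wild-type cells on day 2 of a differentiation protocol. The comparison uses 4 of the 24 samples of the series, and all genes with enough counts were tested. The libraries were selected by their sample labels alone. They are 2 libraries labelled wild type and 2 labelled as AGO2 knockouts, each taken on day 2. All 4 came from the E14 line of mouse embryonic stem cells, on a 129/Ola background. Both genotypes were plated on gelatin in RPMI 1640 with 15% fetal bovine serum, 10 ng/mL Activin A and 0.1 µM all-trans retinoic acid; the full protocol lasts 5 days and is directed towards extraembryonic endoderm (XEN) cells. Cells of both groups had therefore been exposed to the same agents and differed by genotype only, as far as the labels say. The knockout clone and the place of its mutation in the gene are not given in the sources used here, and the labels do not say whether the 2 libraries of a group came from separate cultures. The p-values thus measure the spread between these libraries, which may be technical.

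AGO2 is an Argonaute protein. It carries microRNAs (miRNAs) to partly complementary messenger RNAs, mostly in their 3′ untranslated regions (3′ UTRs), which are then repressed and degraded, and it is the mammalian Argonaute best known for cutting fully matched targets. XEN cells are the cultured counterpart of the primitive endoderm, an early tissue of the embryo that becomes the visceral and parietal endoderm of the yolk sac. GATA6, GATA4, SOX17 and SOX7 are transcription factors that establish this lineage. Its later cells take up maternal proteins through cubilin and lay down a basement membrane of laminin and type IV collagen.

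The miRNAs below are shown because a target is recognised mainly through the seed, bases 2 to 8 counted from the 5′ end, and the 3′ UTR results further down are sorted by matches to these seeds. Sequences are mature miRNAs from RefSeq (GRCm38.p6), 5′ to 3′, with the seed in capitals. The first pair belongs to the miR-290 and miR-302 clusters, the main miRNAs of mouse embryonic stem cells, and shares a seed. That of miR-17-5p is the same run of letters shifted by 1 base. The let-7 and miR-16 families are broadly expressed, and miR-206 is a muscle miRNA shown for comparison.
miR-294-3p: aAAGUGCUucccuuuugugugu
miR-302b-3p: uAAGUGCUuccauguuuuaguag
miR-17-5p: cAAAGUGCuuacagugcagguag
let-7a-5p: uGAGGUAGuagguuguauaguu
miR-16-5p: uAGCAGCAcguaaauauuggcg
miR-206-3p: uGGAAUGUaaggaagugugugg

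Polyadenylated RNA was sequenced and the deposited values were read counts per gene, with totals of 17296881 and 19721175 in the wild-type and 22505644 and 23641671 in the knockout libraries. Levels are given as CPM, read counts divided by a library size scaled with edgeR's TMM method, so that 1 CPM corresponds to 18.4 to 24.9 counts. Of 30590 genes listed, 17694 passed the expression filter and were tested. Replicates resembled each other more than libraries of the other genotype, with a Pearson r across genes of 0.990 between the wild-type and 0.992 between the knockout libraries, against 0.977 to 0.984 between genotypes. Genes are not independent replicates, and these values are a description.

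In the knockout on day 2, 12 of 28 primitive endoderm genes tested were lower and 2 higher, and several genes of Hedgehog signalling, cyclins D1 and D2 and the imprinted genes H19 and Plagl1 were higher. At an adjusted p below 0.05 (edgeR, quasi-likelihood test, spread estimated from 16 libraries of days 1 to 4), 288 genes differed, which is 1.63% of those tested. Among them 137 rose (0.774%) and 151 fell (0.853%), with median log2 fold changes of 1.47 and -1.59. Both knockout libraries lay above both wild-type libraries in 26.9% of all genes tested and below them in 29%, so that a lack of overlap between the groups was common. The number of calls depended on the libraries that estimate the spread. The 4 day 2 libraries alone gave 1440 calls among 16551 genes (8.7%), of which 723 were higher and 717 lower, and 285 of the 288 genes were called there too. Leaving out 1 of the 4 libraries left 49 to 105 calls. In every one of 9 alternative fits, 33 of the 288 genes were called, 25 of them lower and 8 higher. In a bulk sample, fewer cells of a type and less RNA per cell cannot be told apart.

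**Figure D1:**
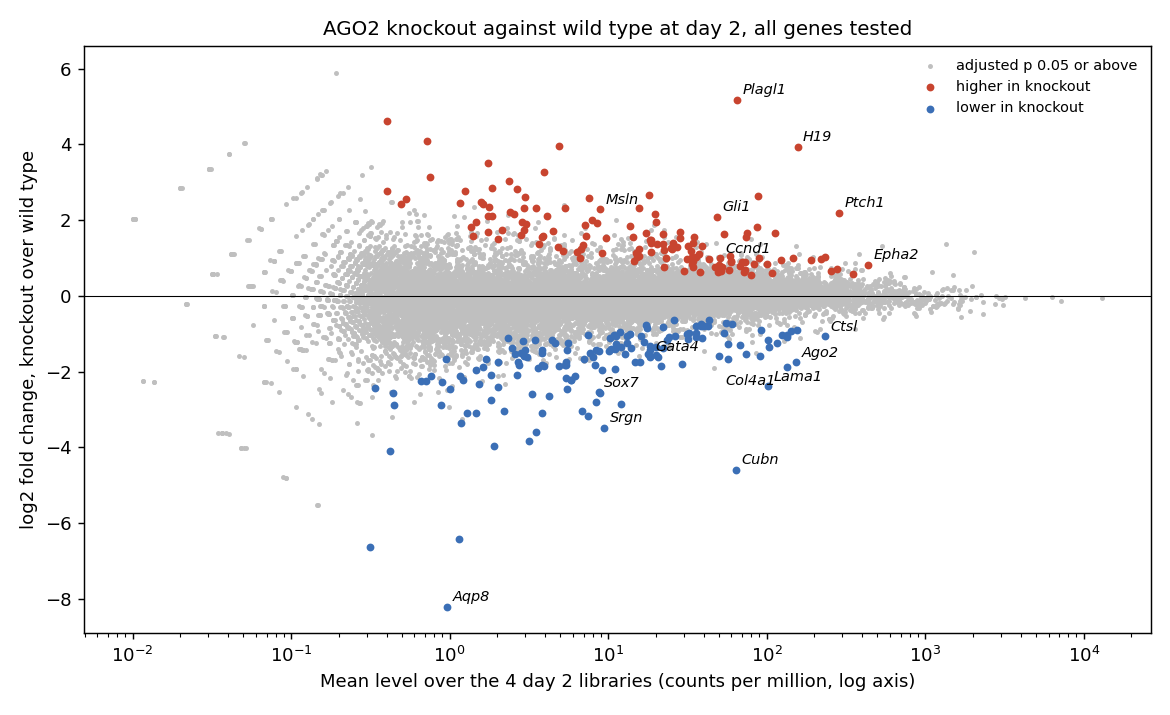
Each point is 1 of the 17694 genes tested, placed by its mean level over the 4 day 2 libraries (CPM, log axis) and its log2 fold change, knockout over wild type; coloured points have an adjusted p below 0.05. The 137 higher and 151 lower genes lie on both sides of 0, with Plagl1 and H19 at the top and Cubn and Aqp8 at the bottom.

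Ago2 itself was measured first. The gene (ENSMUSG00000036698.11) lies on the minus strand of chromosome 15, between 73095844 and 73184935 (GRCm38, GENCODE M21). Its level was 272 and 201 CPM in the wild-type libraries and 56.1 and 84.6 CPM in the knockout libraries. All knockout values were below the wild-type ones, but Ago2 RNA did not vanish. The log2 fold change was -1.75 ± 0.30 (SE, n = 2 libraries per group) with an adjusted p of 0.00893. Without wild-type library 1 the adjusted p was 0.0775, and without knockout library 1 it was 0.0930. The counts cover the whole gene, so they do not show which part of the RNA remained.

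Of 26 genes of the small RNA machinery tested, Ago2 included, 1 was higher and Ago2 was lower (7.69% called, beside 1.63% of all genes). The median log2 fold change was 0.18, beside -0.01 over all genes. Both knockout libraries lay above both wild-type libraries in 11 of the 26 and below in 5, beside 26.9% and 29% of all genes. Lin28b, which blocks the maturation of let-7, rose from 24.2 and 20.5 to 45.3 and 65.4 CPM (1.31 ± 0.22, adjusted p = 0.00686). That call was lost without wild-type library 2 or knockout library 2, with an adjusted p of up to 0.128. Its relative Lin28a stood at 243 and 214 against 358 and 384 CPM, short of the threshold (0.70 ± 0.23, adjusted p = 0.168). The other Argonautes did not pass it either. Ago1 was at 150 and 135 CPM in wild type and 198 and 224 CPM in knockout, with a log2 difference of 0.57 ± 0.20. Ago3 differed by 0.24 ± 0.28 and Ago4 by -0.39 ± 0.32. Dicer1, which cuts miRNA precursors, differed by 0.23 ± 0.16, and Drosha, which acts before it in the nucleus, by -0.02 ± 0.17.

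Of 28 primitive endoderm and XEN genes tested, 12 fell and 2 rose, which is 50% called, beside 1.63% of all genes tested. The median log2 fold change was -1.07. Over the 4 possible pairs of a knockout with a wild-type library that median ranged from -1.35 to -0.82. The list was drawn up with earlier results of these data known, so its direction is a description. Among the regulators, Gata6 stood at 18.7 and 16.3 CPM in wild type and 3.37 and 5.77 CPM in knockout (-1.93 ± 0.43, adjusted p = 0.0432). Gata4 stood at 29.1 and 26.2 CPM against 8.85 and 9.58 CPM (-1.58 ± 0.22, adjusted p = 0.00252). Sox7 stood at 17.1 and 12.7 CPM against 2.12 and 2.97 CPM (-2.54 ± 0.28, adjusted p = 0.000432). All 3 factors were lower in both knockout libraries, and the replicates of each lay closer together than the genotypes. Gata4 and Sox7 lie on the same chromosome, 14, at 63198922 to 63271692 and 63943673 to 63950732.

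Sox17, a partner of the GATA factors in this lineage, was low in all libraries, at 2.88 and 3.01 CPM in wild type and 0.997 and 1.88 CPM in knockout, and was not called (-1.02 ± 0.42, adjusted p = 0.275). Pdgfra, the receptor that marks primitive endoderm, was at 23.2 and 16.4 CPM against 6.32 and 9.22 CPM, also without passing it (-1.35 ± 0.36, adjusted p = 0.0855). Foxa2, a forkhead factor of endoderm and of axial structures, moved the other way, from 2.5 and 3.65 to 10.9 and 11.7 CPM (1.87 ± 0.38, adjusted p = 0.0223). Runx1, a factor better known from blood formation, fell from 5.49 and 5.92 to 0.789 and 1.08 CPM, and Tfec, of the MiT family, from 3.2 and 3.98 to 0.374 and 0.0802 CPM. The calls of Gata4, Sox7 and Tfec were kept whichever library was left out. Those of Gata6 and Foxa2 were lost whichever was left out, with adjusted p up to 0.252 and 0.219, and that of Runx1 without knockout library 1 (adjusted p = 0.0550). The 4 day 2 libraries fitted alone gave an adjusted p of 0.00896 for Pdgfra and 0.0864 for Sox17.

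**Figure D2:**
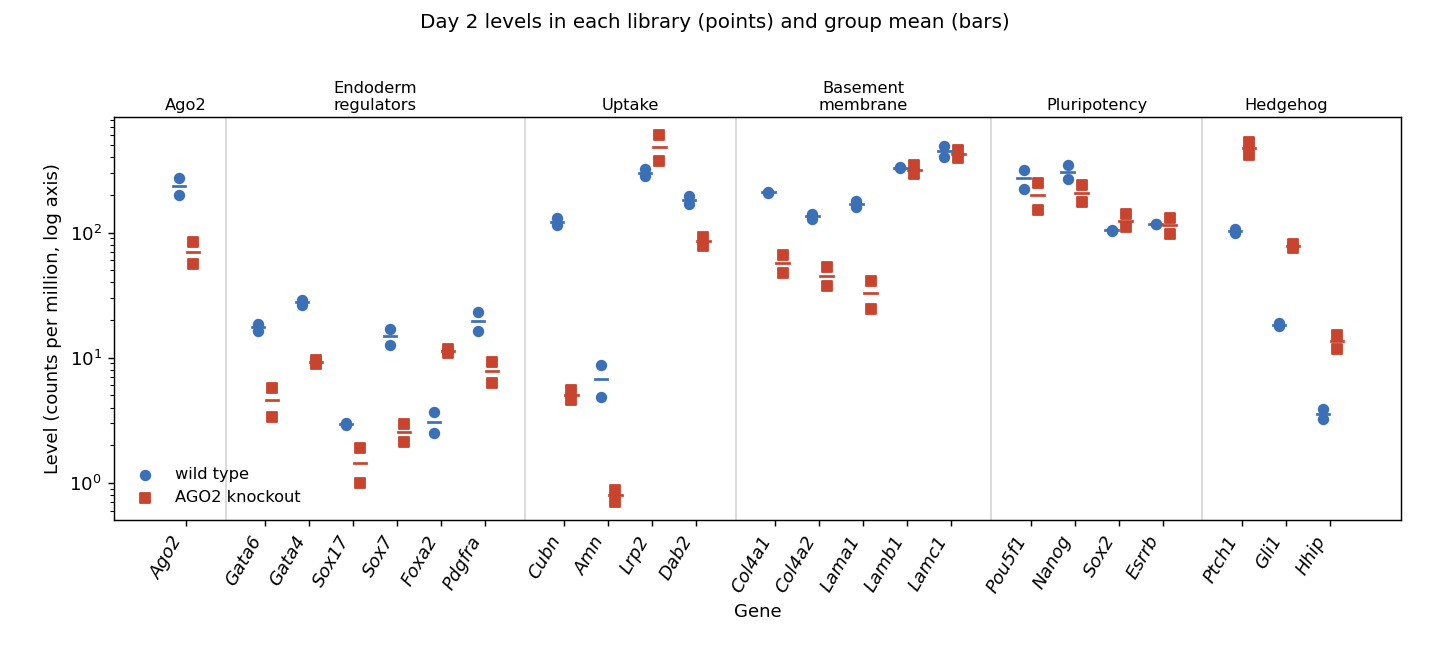
Levels of selected genes (CPM, log axis) in each day 2 library, wild type as blue circles and AGO2 knockout as red squares, with bars at the group means. The endoderm regulators other than Foxa2, Cubn, Amn, Dab2, both type IV collagens and Lama1 are lower in both knockout libraries, the 4 pluripotency genes overlap or lie close together, and the 3 Hedgehog genes are higher.

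The largest fall among well-expressed genes was that of Cubn, which encodes cubilin, the receptor through which yolk sac endoderm takes up proteins. The gene lies on chromosome 2, from 13276338 to 13491813. Its level was 130 and 115 CPM in wild type and 4.57 and 5.57 CPM in knockout. Both knockout values were far below both wild-type values, with a log2 fold change of -4.59 ± 0.37 (95% interval -5.39 to -3.79, adjusted p = 6.75e-05). Amn, which encodes amnionless, the membrane partner that carries cubilin to the surface, fell with it, from 4.83 and 8.79 to 0.706 and 0.882 CPM (-3.09 ± 0.36, adjusted p = 0.000645). The endocytic adaptor Dab2 was at 168 and 195 against 77.7 and 92.8 CPM (-1.09 ± 0.22, adjusted p = 0.0211). Lrp2, which encodes the co-receptor megalin, did not share the direction, with 322 and 284 CPM in wild type and 375 and 601 CPM in knockout (0.69 ± 0.26, adjusted p = 0.230). Lrpap1, a chaperone of receptors of the megalin family, was lower (-0.89 ± 0.17, adjusted p = 0.0174). The calls of Cubn and Amn were kept whichever library was left out, that of Dab2 was lost each time (adjusted p up to 0.207), and that of Lrpap1 was kept only without knockout library 1 (otherwise up to 0.313).

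Visceral endoderm genes as a group had 6 lower and 2 higher of 31 tested (25.8% called, beside 1.63% of all genes). Their median log2 fold change was -0.55. Besides Cubn and Amn, the lower genes included Klb, Habp2 and Clic6. Klb encodes the beta-klotho co-receptor of endocrine FGFs and was at 6.57 and 6.48 against 0.54 and 0.521 CPM (-3.60 ± 0.34, adjusted p = 0.000144). Habp2, a secreted serine protease, had 93 counts in the wild-type libraries and 1 in the knockout libraries, a ratio of 114 with an exact 95% counting interval of 19.9 to 4546. The chloride channel gene Clic6 was at 19.9 and 29.3 against 7.64 and 7.14 CPM (-1.74 ± 0.28), a call that was lost without wild-type library 2 or knockout library 2 (adjusted p up to 0.0987). The higher genes were Foxa2 and Cdx2, and Cdx2, a factor of trophoblast and hindgut, was at 1.19 and 0.509 against 4.65 and 3.25 CPM (2.23 ± 0.42, adjusted p = 0.0143). Its call was kept only without wild-type library 1. The serum protein genes Afp, Ttr and Apoa1 were at most 1.48 CPM in any library, so that differences in them were hardly measurable at this depth.

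Among 33 genes of absorptive epithelium and transport (median -0.52), 6 fell and none rose (18.2% called, beside 1.63% of all genes). These were Cubn, Amn and Dab2 again, with Slc39a8, Ctsc and Aqp8. The water channel gene Aqp8 had 79 counts in wild type and 0 in the knockout libraries, which makes it at least 32.2-fold lower when the knockout group is given a floor of 3 counts. With Aqp8 set to that bound, the medians of the 2 lists that hold it did not move. The zinc transporter gene Slc39a8 was at 4.51 and 3.61 against 1.5 and 2.04 CPM (-1.19 ± 0.27, adjusted p = 0.0394). Ctsc, which encodes a lysosomal peptidase, was at 28 and 32.1 against 9.8 and 10.4 CPM (-1.57 ± 0.26, adjusted p = 0.0064). Further cathepsin genes outside the list were lower as well. Ctsl was at 286 and 350 against 155 and 148 CPM (-1.07 ± 0.19, adjusted p = 0.0112), and Ctsh at 10.8 and 18.6 against 2.33 and 1.88 CPM (-2.80 ± 0.37, adjusted p = 0.00165). The call of Slc39a8 was lost whichever library was left out (adjusted p up to 0.258) and those of Ctsc and Ctsl were kept only without wild-type library 1 (otherwise up to 0.170), while Ctsh and Aqp8 kept theirs throughout.

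The basement membrane list had 4 lower and no higher genes among 30 tested (13.3% called, beside 1.63% of all genes). Its median was -0.08, near that of all genes. The 4 were Lama1, Col4a1, Col4a2 and P4ha2. Of these, Lama1, Col4a1 and Col4a2 were also counted among the lower genes of the primitive endoderm list. Lama1 encodes the alpha 1 chain of laminin and was at 179 and 162 CPM in wild type and 24.8 and 40.7 CPM in knockout (-2.38 ± 0.30, adjusted p = 0.00163). The genes of its partner chains were level, with Lamb1 at 327 and 332 against 294 and 346 CPM (-0.04 ± 0.15) and Lamc1 at 491 and 402 against 393 and 462 CPM (-0.06 ± 0.21). Lama5, which encodes another alpha chain, was at 501 and 442 against 685 and 761 CPM and did not pass the test (0.62 ± 0.22, adjusted p = 0.207). Of these 4 laminin genes, Lama1 was the one that passed the test. P4ha2, a subunit of collagen prolyl hydroxylase, was at 167 and 167 against 84.8 and 79.7 CPM (-1.02 ± 0.15, adjusted p = 0.00319). Other matrix genes of the list did not pass the test, among them Sparc (-0.23 ± 0.20), Nid1 (0.35 ± 0.44) and Hspg2 (0.36 ± 0.25).

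Col4a1 and Col4a2 encode the 2 chains of the main type IV collagen and are transcribed in opposite directions on chromosome 8. Col4a1 was at 208 and 212 CPM in wild type and 47.3 and 66.6 CPM in knockout (-1.88 ± 0.28, adjusted p = 0.00386). Col4a2 was at 129 and 142 against 37.1 and 52.8 CPM (-1.59 ± 0.24, adjusted p = 0.00373). The pair fell together, and in both genes knockout library 1 was the lower one. Without knockout library 1 the adjusted p was 0.0513 for Col4a1 and 0.0537 for Col4a2, and that of P4ha2 was 0.0797 without knockout library 2. The RefSeq starts of the 2 genes lie 21 bases apart, and the 30 bases around them are printed because the pair shares this start region (GRCm38.p6, chr8:11312801-11312830, plus strand, from 4 bases before the start of Col4a2 to 4 bases past that of Col4a1). Capitals mark the bases between and including the 2 starts.
Col4a2 and Col4a1 start region: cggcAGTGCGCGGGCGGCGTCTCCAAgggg

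Promoters of 300 bases (250 before and 50 after the start) were found in the RefSeq table for 12014 of the genes tested and 194 of the 288 called. The letters AGATAA, which GATA factors are known to bind, were searched on both strands. They occurred in 11.4% of all promoters in the table and in 6.65% of those of the genes tested. Among genes lower in the knockout 9 of 105 promoters held them (8.57%), that of Dab2 included, and among higher genes 6 of 89 (6.74%). The shares of the 2 called groups were thus close to that of the genes tested. Binding was not measured.

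The 12 largest falls at 5 CPM or more took in Cubn, Sox7, Lama1 and Ctsh, and 7 others are given here. Srgn, which encodes the proteoglycan serglycin, was at 14.2 and 20.4 against 1.66 and 1.44 CPM (-3.48 ± 0.26, adjusted p = 3.33e-05). The surface protein gene Ly6k was at 11.6 and 15.2 against 1.74 and 1.2 CPM (-3.18 ± 0.42), the muscle-type fructose bisphosphatase Fbp2 at 13.8 and 10.6 against 1.66 and 1.28 CPM (-3.05 ± 0.30), and Nxf7, of the mRNA export factor family, at 19.6 and 22.8 against 3.45 and 2.41 CPM (-2.85 ± 0.25). Dram1, a lysosomal membrane protein induced by p53, was at 7.06 and 11.6 against 1.7 and 1.72 CPM (-2.45 ± 0.27). In all 5 genes both knockout libraries were below 4 CPM. Dkk1, a secreted inhibitor of WNT signalling, was at 9.29 and 10 against 1.74 and 2.41 CPM (-2.21 ± 0.23, adjusted p = 0.000334). The homeobox gene Crxos was the smallest of these falls, at 9.72 and 8.05 against 2.74 and 1.2 CPM (-2.17 ± 0.44, adjusted p = 0.0212), and its call was kept only without knockout library 1. That of Ly6k was lost without knockout library 2 (adjusted p = 0.0548), and those of the other 5 were kept whichever library was left out.

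The 4 defining pluripotency genes overlapped between the genotypes or differed by less than the test could resolve. Pou5f1 was at 318 and 225 CPM in wild type and 248 and 151 CPM in knockout, with a log2 difference of -0.45 (95% interval -1.79 to 0.90). Nanog was at 345 and 270 against 239 and 176 CPM (-0.57, interval -2.14 to 1.00), Sox2 at 105 and 103 against 140 and 110 CPM (0.26 ± 0.58) and Esrrb at 118 and 118 against 131 and 97.9 CPM (-0.05, interval -1.45 to 1.35). Each of the intervals given includes a 2-fold difference in at least 1 direction, so they do not show that levels were equal. All 4 defining stem cell markers were thus present in every library on day 2. Of 22 genes of naive pluripotency (median -0.36), both knockout libraries lay below both wild-type libraries in 12 and above in 2. Over all genes tested, these shares were 29% and 26.9%. By the test, 1 of the 22 fell and none rose (4.55% called, beside 1.63% of all genes). That gene was Tbx3, at 158 and 139 against 57.5 and 58.2 CPM (-1.36 ± 0.26, adjusted p = 0.0167), whose call was lost whichever library was left out (adjusted p up to 0.191). Tdh, the threonine dehydrogenase of mouse embryonic stem cells, was at 15 and 16.3 against 8.85 and 4.65 CPM without passing the test (-1.21 ± 0.39, adjusted p = 0.162). No gene of the general pluripotency list (17 tested, median 0.12) or of the formative and primed epiblast list (20 tested, median 0.35) passed the test.

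Germ cell genes, several of which embryonic stem cells express at a low level, had 4 lower and no higher members of 20 tested (median -0.50). This is 20% called, beside 1.63% of all genes tested. Dazl, an RNA-binding protein of germ cells, was at 110 and 111 against 39.5 and 36.9 CPM (-1.53 ± 0.25, adjusted p = 0.00718). Taf7l, a germ cell variant of a TFIID subunit, was at 26.3 and 29 against 8.48 and 9.62 CPM (-1.61 ± 0.21, adjusted p = 0.00131), and Stk31 and Tex101 fell by 1.06 and 1.84 on the log2 scale. The defining marker Ddx4 was at 48 and 50.5 against 34.5 and 35.2 CPM and did not pass the test (-0.50 ± 0.13, adjusted p = 0.0855). The call of Taf7l was kept whichever library was left out, that of Dazl only without wild-type library 1, and those of Stk31 and Tex101 in no such fit (adjusted p up to 0.432). Summed over the list, germ cell genes stood at 765 and 728 CPM in wild type and 560 and 498 CPM in knockout.

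Genes of the 2-cell-like state, which a few embryonic stem cells enter at any time, had 3 lower and no higher members of 22 tested, and the second lowest median of the 40 lists, -0.90. Over the 4 pairs of libraries the median ranged from -1.29 to -0.28. Usp17la was at 36.9 and 54.4 against 10.7 and 15.4 CPM (-1.81 ± 0.27, adjusted p = 0.00319), and Usp17le at 71.1 and 101 against 24.8 and 29.7 CPM (-1.66 ± 0.29, adjusted p = 0.0094). These deubiquitinase genes are near-identical neighbours on chromosome 7 whose reads the counting could split, so they are uncertain as separate genes. Pramel6 was at 3.75 and 3.01 against 0.706 and 0.561 CPM (-2.40 ± 0.49, adjusted p = 0.0236). The 3 calls are 13.6% of the list, beside 1.63% called among all genes tested. Both knockout libraries lay below both wild-type libraries in 17 of the 22 and above in 0, beside 29% and 26.9% of all genes. The defining genes of the state were not called. Zscan4c was lower in both knockout libraries, at 105 and 142 against 80.8 and 102 CPM (-0.44 ± 0.22, adjusted p = 0.400). Zscan4d overlapped between the groups, at 106 and 128 against 91.6 and 127 CPM (-0.10 ± 0.24). The Zscan4 genes are near-identical copies too. All 3 calls were lost without wild-type library 2 and without knockout library 1 (adjusted p up to 0.136), those of Usp17le and Pramel6 also without knockout library 2, and that of Pramel6 without wild-type library 1.

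Markers of cell types other than those aimed for were checked as lists, beside 0.774% higher and 0.853% lower among all genes tested. Blood and endothelium had 1 lower (Runx1) of 14 tested, and list sums of 115 and 93.9 against 122 and 99.5 CPM, with Ptprc at 0 counts in all 4 libraries and Cdh5 at 0.833 to 1.90 CPM. Trophoblast markers had 1 higher (Cdx2, given above) and none lower of 16 tested. Of the defining trophoblast markers, Cdx2 was thus higher, while Elf5 had 0 to 3 counts per library. Summed over the list, trophoblast markers stood at 1634 and 1324 CPM in wild type and 2423 and 3690 CPM in knockout, of which the imprinted gene Peg10 alone made 1409 and 1104 CPM and 2194 and 3452 CPM. Neural markers had 2 higher (Pax6, Prom1) of 29, with list sums of 423 and 357 against 463 and 477 CPM. Pax6, a regulator of neural and eye development, was at 5.05 and 6.89 against 19.9 and 22.8 CPM (1.83 ± 0.26, adjusted p = 0.00259), and Sox1 at 4.78 and 4.95 against 13.8 and 15.2 CPM without passing the test. Primitive streak markers had 2 higher (Foxa2, Cdx2) of 20, the highest median of the lists at 0.49, and sums of 96.1 and 80.8 against 130 and 121 CPM, while T and Mixl1 were at 0.648 to 2.29 CPM throughout. Mesothelial markers had 2 higher of 17, with sums of 272 and 252 against 253 and 294 CPM. Msln, which encodes mesothelin, was at 3.48 and 2.59 against 15.5 and 14.1 CPM (2.29 ± 0.25, adjusted p = 0.000432), and Wt1 at 8.64 and 13.1 against 26.1 and 41.2 CPM (1.62 ± 0.27, adjusted p = 0.00742). The cardiac and lateral mesoderm list (26 tested) held Wt1 as higher and Tbx3 as lower, with sums of 290 and 263 against 213 and 290 CPM. The calls of Pax6 and Msln were kept whichever library was left out, that of Wt1 was lost without wild-type library 1 or knockout library 2 (adjusted p up to 0.126), and that of Prom1 in every case (up to 0.389). The part of other cell types in the results above was not tested.

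Hedgehog signalling showed the most rises of any pathway list, with 4 of 17 genes higher (23.5%) and none lower, and a median of 0.30. Among all genes tested 0.774% were higher. Hedgehog ligands bind the PTCH receptors, which frees SMO and activates the GLI factors, and Ptch1, Gli1 and Hhip are themselves standard target genes of the pathway. Ptch1 (chromosome 13, 63508328 to 63573598) was at 108 and 98.6 CPM in wild type and 416 and 527 CPM in knockout (2.19 ± 0.30, adjusted p = 0.00241). Gli1 (chromosome 10, 127329882 to 127341974) was at 19 and 17.9 against 80.9 and 75.6 CPM (2.09 ± 0.31, adjusted p = 0.00319). Hhip, which encodes a ligand-binding inhibitor, was at 3.91 and 3.24 against 11.8 and 15.2 CPM (1.92 ± 0.31, adjusted p = 0.00651). These 3 genes were higher in both knockout libraries, and for each the replicates lay close together.

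Other factors and the ligands of the pathway did not pass the test. Gli2 was at 33.8 and 37.5 against 56.7 and 64 CPM (0.76 ± 0.18, adjusted p = 0.0540) and Gli3 at 52.6 and 39.7 against 71.4 and 104 CPM (0.92 ± 0.29, adjusted p = 0.140). Of the ligand genes, Ihh was at 0.815 and 1.2 against 0.291 and 0.361 CPM and Dhh at 2.17 and 3.7 against 0.914 and 1.44 CPM, and Shh was below 0.6 CPM in every library and not tested. The ligand genes thus had low counts and no rise, beside rises of the target genes. Smo (0.28 ± 0.14) and Sufu (-0.13 ± 0.16) did not pass the test. Calls of Ptch1 and Gli1 were lost only without wild-type library 2 (adjusted p = 0.0565 and 0.0857), and that of Hhip without wild-type library 2 or knockout library 2 (up to 0.131).

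The 2 largest rises at 5 CPM or more were imprinted genes. Plagl1 (chromosome 10, 13060504 to 13131694), a zinc finger factor normally expressed from the paternal copy, was at 3.42 and 3.52 CPM in wild type and 95.6 and 156 CPM in knockout (5.18 ± 0.71, adjusted p = 0.00435). H19 (chromosome 7, 142575529 to 142578143), a maternally expressed non-coding RNA, was at 24.7 and 13.9 against 238 and 351 CPM (3.93 ± 0.72, adjusted p = 0.0204). Both were far higher in the 2 knockout libraries than in the wild-type ones. Its neighbour Igf2, expressed from the other parental copy, was at 95.1 and 67.2 against 54.2 and 66 CPM and did not pass the test (-0.43 ± 0.25, adjusted p = 0.484). In the list of imprinted genes 4 of 50 were higher (8%, beside 0.774% of all genes) and none was lower, with a median of 0.33. The other 2 were Ddc (14.4 and 14.7 against 38.7 and 45.1 CPM, 1.53 ± 0.34) and Tspan32 (1.9 and 0.833 against 5.36 and 3.65 CPM, 1.73 ± 0.39). Peg3 (1.33 ± 0.37), Peg10 (1.17 ± 0.35) and Mest (1.12 ± 0.33) were higher in both knockout libraries without passing the test, with adjusted p of 0.105 to 0.133. Plagl1 lost its call without either wild-type library (adjusted p up to 0.107), H19 and Ddc whichever library was left out (up to 0.281 and 0.323), and Tspan32 in all cases but the one without wild-type library 1. Allelic expression was not measured.

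Calls in other signalling lists were 3 of 28 FGF genes (10.7%), 1 of 7 PDGF genes (14.3%) and 2 of 46 WNT genes (4.35%). Among all genes tested 1.63% were called. In the WNT list both knockout libraries lay above both wild-type libraries in 26 genes and below in 6, beside 26.9% and 29% of all genes. In the FGF list, Fgf17 was at 8.58 and 7.82 against 37.1 and 26.4 CPM (1.95 ± 0.42, adjusted p = 0.0346) and Il17rd, a feedback inhibitor of FGF signalling, at 160 and 148 against 263 and 367 CPM (1.04 ± 0.22, adjusted p = 0.0317), while Klb was lower. Of 7 PDGF genes the ligand Pdgfc alone passed the test, at 2.23 and 2.13 against 12.3 and 13.8 CPM (2.58 ± 0.46, adjusted p = 0.0157), beside the lower but uncalled receptor Pdgfra. In the WNT list of 46, the inhibitor Notum was higher, at 2.99 and 3.28 against 14.1 and 11.1 CPM (2.00 ± 0.44, adjusted p = 0.0366), and the inhibitor Dkk1 lower. The calls of Fgf17, Pdgfc and Notum were lost whichever library was left out, with adjusted p up to 0.333, and that of Il17rd was kept only without knockout library 1.

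No gene of the nodal and activin list (23 tested, median 0.38), the BMP list (29 tested, median 0.17) or the retinoic acid list (23 tested, median 0.10) passed the test. Lefty1, a nodal inhibitor and target, was at 686 and 825 CPM in wild type and 1967 and 1962 CPM in knockout (1.38 ± 0.37, adjusted p = 0.101). Its replicates lay close together on day 2, and with the 4 day 2 libraries fitted alone its adjusted p was 0.00103. The retinoic acid target Cyp26a1 varied within both genotypes, at 82.9 and 148 against 75.9 and 211 CPM. Of 29 Hox genes, Hoxa9 alone was called (3.45%, beside 1.63% of all genes tested). It was higher, at 1.36 and 1.43 against 3.78 and 4.73 CPM (1.60 ± 0.31, adjusted p = 0.0174), a call that no fit with a library left out kept.

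Cell cycle genes had 2 higher and no lower members of 40 tested (5% called, beside 1.63% of all genes, median 0.15). Ccnd1, which encodes cyclin D1, was at 35.8 and 32.2 against 66.9 and 69.2 CPM (1.00 ± 0.21, adjusted p = 0.0256), and Ccnd2, which encodes cyclin D2, at 42.1 and 33.8 against 111 and 159 CPM (1.83 ± 0.27, adjusted p = 0.00319). Their kinase partner Cdk6 was at 7.82 and 4.77 against 14.3 and 21.1 CPM and did not pass the test (adjusted p = 0.0653). The call of Ccnd2 was lost without wild-type library 2 (adjusted p = 0.0873), and that of Ccnd1 whichever library was left out (up to 0.277).

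The 10 most abundant higher genes included Ptch1 and H19, given above, and the other 8 had log2 fold changes of 0.57 to 1.04. Epha2, an ephrin receptor, was at 318 and 311 against 529 and 581 CPM (0.82 ± 0.18, adjusted p = 0.0340), and the transcription factor gene Gtf2i at 276 and 288 against 408 and 430 CPM (0.57 ± 0.13, adjusted p = 0.0432). Tubb2b, a neuronal tubulin, was at 230 and 187 against 344 and 343 CPM (0.72 ± 0.16), Ckb, the brain-type creatine kinase, at 107 and 88.7 against 202 and 192 CPM (adjusted p = 0.0138), and Utrn, the dystrophin relative utrophin, at 145 and 117 against 224 and 277 CPM (0.94 ± 0.21). Among the abundant lower genes were Ctc1, of the telomere-binding CST complex, at 194 and 177 against 102 and 93.6 CPM (-0.93 ± 0.14, adjusted p = 0.00339), Avpi1 at 150 and 177 against 74.3 and 62.7 CPM (-1.26 ± 0.25) and Tuba3a at 165 and 196 against 89.4 and 87.3 CPM (-1.03 ± 0.19), a tubulin gene with a close copy, Tuba3b, with which reads may be shared. The groups did not overlap in any of these 8 genes, which held for all 288 called genes. The call of Ctc1 was lost without knockout library 2 alone (adjusted p = 0.0946), that of Tuba3a without any library but wild-type library 1, and those of the other 6 whichever library was left out (up to 0.426).

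Further large rises were found in single genes of unlike function. Cyp1b1, a cytochrome P450, was at 18.1 and 30.3 against 88.9 and 216 CPM (2.65 ± 0.42, adjusted p = 0.00893), Aass, an enzyme of lysine breakdown, at 6.35 and 4.26 against 32.5 and 19.9 CPM (2.31 ± 0.36), and Hecw2, a ubiquitin ligase, at 8.15 and 6.29 against 28.5 and 36.4 CPM (2.17 ± 0.35). Nkx2-9, a homeobox gene, was at 1.57 and 1.94 against 8.6 and 9.22 CPM (2.33 ± 0.43, adjusted p = 0.0130). The knockout libraries lay far apart in Cyp1b1, whose call was lost without either wild-type library (adjusted p up to 0.107) and with the 4 day 2 libraries fitted alone (adjusted p = 0.0617). Aass was not called without wild-type library 2 or knockout library 1 (up to 0.119), Hecw2 without wild-type library 2 or knockout library 2 (up to 0.129), and Nkx2-9 in no such fit (up to 0.138). Single calls in other lists were Eno2 (-1.11 ± 0.20) among 35 hypoxia and glycolysis genes, Serpinb6a (-0.72 ± 0.16) among 15 serpins and Thy1 (-1.86 ± 0.31) among 29 collagen and mesenchymal matrix genes. These calls were 2.86%, 6.67% and 3.45% of their lists, beside 1.63% of all genes tested. The call of Eno2 was kept only without knockout library 1 (otherwise up to 0.259), that of Thy1 was lost without wild-type library 2 or knockout library 2 (up to 0.146), and that of Serpinb6a in every case (up to 0.403). Serpinb6a has close copies with which reads may be shared.

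**Figure D3:**
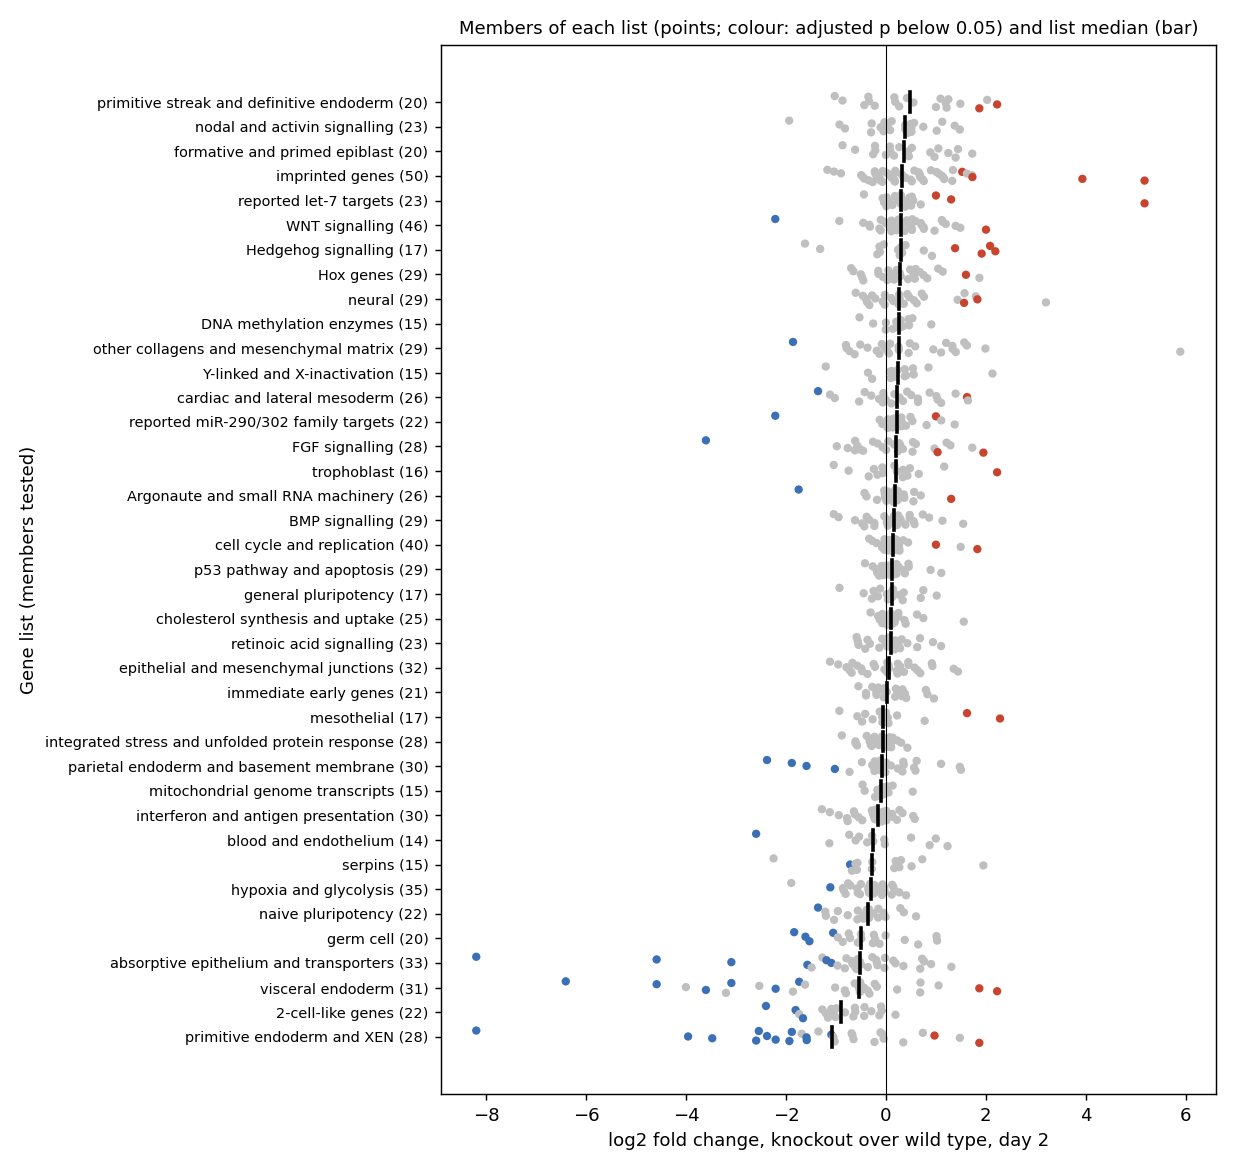
Log2 fold changes, knockout over wild type, of the members of each gene list with at least 10 genes tested (points), coloured red or blue where the adjusted p was below 0.05, with the list median as a black bar. Medians run from 0.49 in the primitive streak list to -1.07 in the primitive endoderm and XEN list.

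Most genes reported as miRNA targets lay above 0 and few passed the test. Of 23 reported let-7 targets, 3 were higher and none lower (Lin28b, Ccnd1 and Plagl1), beside 0.774% higher among all genes, with a median of 0.31. In 15 of the 23 both knockout libraries lay above both wild-type libraries, and in 1 below, beside 26.9% and 29% of all genes. Of 22 reported targets of the miR-290 and miR-302 family, Ccnd1 was higher and Dkk1 lower, with a median of 0.22, and 13 lay above without overlap and 2 below. The lists were drawn up with earlier results known, so these counts are a description. Lats2, a Hippo pathway kinase with 2 matches to that family's seed in its 3′ UTR, was at 13.9 and 11.4 against 22 and 32.6 CPM and did not pass the test (adjusted p = 0.0944, log2 difference 1.11 ± 0.31). In the annotation used, the 3′ UTR of Lin28b held 4 matches to the let-7 seed, those of Ccnd1 and Plagl1 none, and that of Dkk1 no match to the miR-290 and miR-302 seed.

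Across all genes, those with matches to the miR-290 and miR-302 seed in the 3′ UTR had slightly higher median fold changes. The longest annotated 3′ UTR of 12664 genes averaging 1 CPM or more (chromosome 18 left out) was searched for the 7-base complement of each of 7 seeds, for this seed AGCACTT. The median log2 fold change was -0.01 in 10464 genes without a match, 0.08 in 1793 with 1 and 0.13 in 407 with 2 or more. For the overlapping miR-17 seed (complement GCACTTT) it was -0.01, 0.09 and 0.19. Genes with more matches have longer 3′ UTRs, with medians of 958, 2278 and 3835 bases for the first seed, and their medians also rose for miR-206, from 0.00 to 0.05 and 0.12, and differed between replicates. At 2 or more matches to the first seed, knockout library 1 stood 0.07 and knockout library 2 stood 0.20 above the wild-type mean. The median difference between these 2 libraries was -0.15, larger in size than the shift itself, and that between the wild-type libraries was 0.05.

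Within 3′ UTRs of 1000 to 2000 bases, where lengths were alike, the medians for the miR-290 and miR-302 seed were 0.01 in 2692 genes, 0.06 in 486 and 0.21 in 41. At 2 or more matches knockout library 1 stood 0.18 and knockout library 2 stood 0.24 above the wild-type mean, and the wild-type libraries differed by -0.02. The miR-17 seed gave 0.01, 0.08 and 0.19, the last in 38 genes. For let-7 the medians were 0.02 without and 0.02 with 1 match, for miR-15 and miR-16 they were 0.01, 0.05 and 0.05, and for miR-206 they were 0.02, -0.0030 and 0.06. Matches to the first 2 seeds often coincide, and in this length range 214 genes with both had a median of 0.11, against 0.05 in 313 with the first alone and 0.06 in 236 with the second alone. None of the 41 genes with 2 or more matches to the first seed was called. A match is not a known site, small RNAs were not measured, and no test was made of these medians.

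**Figure D4:**
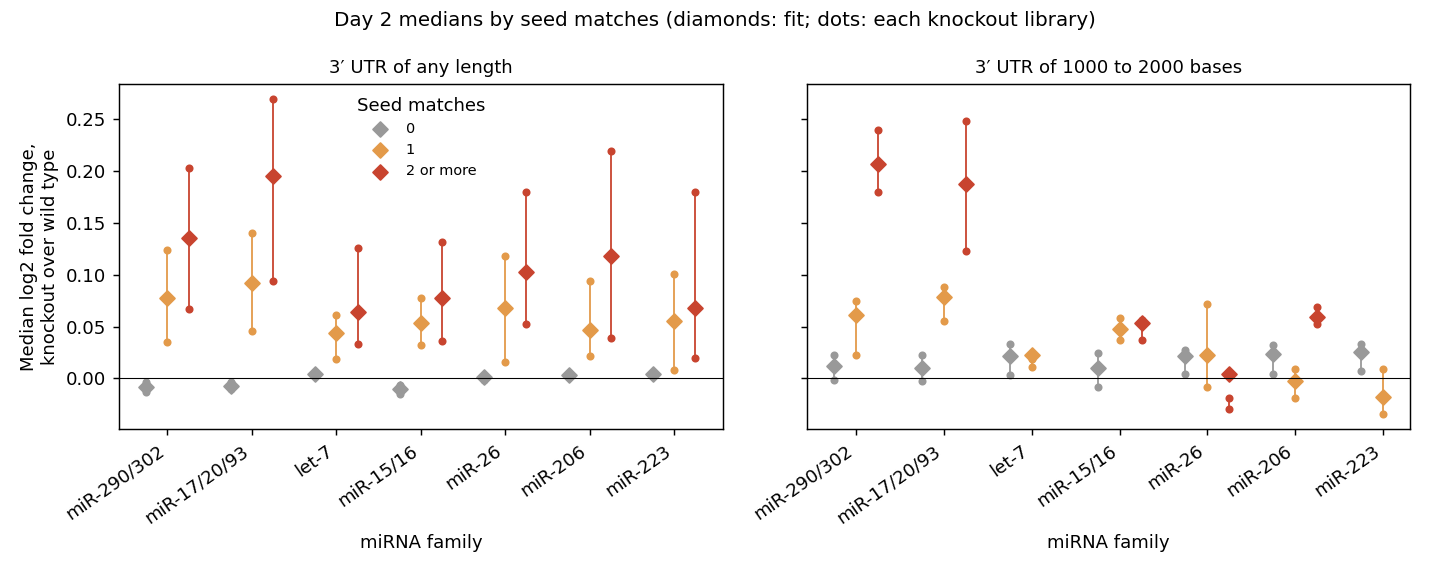
Median log2 fold change, knockout over wild type, of genes with 0, 1 or 2 or more matches to the seed of each miRNA family in the 3′ UTR, for 3′ UTRs of any length (left) and of 1000 to 2000 bases (right). Diamonds are medians of the fitted values and dots those of each knockout library against the wild-type mean; on the right the medians at 2 or more matches are highest for the miR-290 and miR-302 seed (0.21) and the miR-17 seed (0.19).

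Fold changes also moved with the position of genes on the chromosomes. Of genes at 1 CPM or more, the median log2 fold change was 0.00 on chromosomes other than 10, 11 and 15. On chromosome 15, which holds Ago2, it was -0.17 over 565 genes, of which 75.2% were lower in the knockout, and the medians of knockout libraries 1 and 2 against the wild-type mean were -0.14 and -0.23. On chromosome 11 it was 0.13 over 1201 genes, with 0.12 in both knockout libraries. All stretches of 10 Mb with at least 20 such genes on chromosomes 11 and 15 had medians on the same side as the whole, from 0.04 to 0.22 and from -0.30 to -0.08.

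Smaller stretches stood apart on several chromosomes. Of 1672 overlapping windows of 5 Mb with at least 15 such genes, 31 had a median of 0.3 or more in size. On chromosome 10 there were 10 of them, all above 0 (0.38 to 0.62). The 8 on chromosome 13 (-0.82 to -0.33) and the 6 on chromosome 15 (-0.46 to -0.30) were all below 0, and chromosome 12 had 4 (-0.84 to 0.36), chromosome 4 had 2 and chromosome X had 1.

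On chromosome 10 between 50 and 74 Mb, bounds chosen after the values were seen, 97 genes had a median log2 fold change of 0.46 (quartiles 0.24 and 0.69), against -0.01 over the other 570 genes of the chromosome. Of these 97 genes, 81 were above 0 and 75 had both knockout libraries above both wild-type libraries (77.3%, beside 26.9% of all genes tested). The medians were 0.45 and 0.48 in the 2 knockout libraries, and the wild-type libraries differed by 0.02. Genes called higher there were Gopc, Gja1, Serinc1, Ddx21, Ccar1, Reep3, Jmjd1c and Fam13c, with log2 fold changes of 0.62 to 1.37. They are 8 of the 97 genes, beside 0.774% called higher among all genes tested, and 8 of the 137 higher calls. Gja1, a gap junction gene that is 1 of the 2 higher members of the primitive endoderm list, was at 142 and 156 against 265 and 319 CPM (0.97 ± 0.22, adjusted p = 0.0408). Ddx21, an RNA helicase of the nucleolus, was at 202 and 192 against 293 and 334 CPM (0.67 ± 0.14, adjusted p = 0.0285). Srgn lies in the same stretch and fell. None of the 8 calls was kept whichever library was left out, and 5 of them were kept in none of these fits. Gene position moved with these results, and its part in them was not tested.

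**Figure D5:**
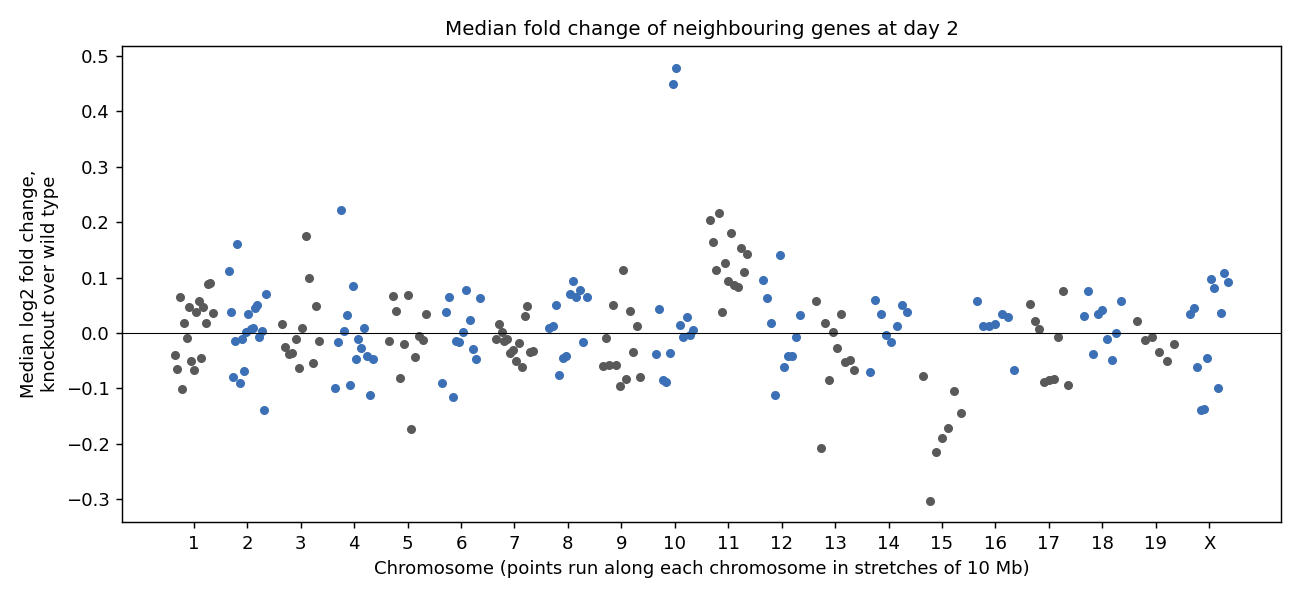
Median log2 fold change, knockout over wild type on day 2, of the genes in each stretch of 10 Mb with at least 20 genes at 1 CPM or more, in order along each chromosome. The 2 highest points, at 0.45 and 0.48, are neighbouring stretches of chromosome 10; points of chromosome 11 lie above 0 and those of chromosome 15 below it.

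Lists with no call in either direction covered junction genes (32 tested, median 0.06), cholesterol synthesis and uptake (25, 0.10), the integrated stress and unfolded protein responses (28, -0.07), p53 targets and apoptosis (29, 0.12), interferon and antigen presentation (30, -0.16), immediate early genes (21, 0.02), DNA methylation enzymes (15, 0.27) and mitochondrially encoded transcripts (15, -0.09). Medians of these lists moved within 0.3 of 0. Trp53 itself was at 240 and 241 against 339 and 323 CPM and did not pass the test (0.46 ± 0.14, adjusted p = 0.116). Mitochondrial transcripts made up 1.67% and 1.66% of counts in wild type and 1.53% and 1.52% in knockout.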

How the data were processed

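Polyadenylated RNA of 4 day 2 libraries was compared. The authors deposited whole-number counts of reads for each gene, made with STAR 2.5.0c and featureCounts 1.4.5-p1 on mm10, per the submitters' processing notes. The library protocol was strand-specific per the labels, but the strand setting of the counting and the annotation are not given in the sources used here, so reads of overlapping or near-identical genes may be shared.

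Counts were fitted with edgeR 4.0.16 in R 4.3.3 (TMM, filterByExpr by group with a minimum count of 10, robust quasi-likelihood) over 16 libraries of days 1 to 4 in 8 groups of 2. The other days did not enter the contrast. They served to estimate the spread, and they also took part in the expression filter and the TMM scaling. With the 4 day 2 libraries alone, 16551 genes passed the filter. Knockout was contrasted with wild type at day 2, and a call needed an adjusted p (Benjamini-Hochberg, over 17694 genes) below 0.05. Values given with ± are log2 fold changes with their SE, from the F statistic. Total counts ranged from 10601574 to 27147835 over the 16 libraries. Replicates differed by more than sampling noise (chi-square per degree of freedom 12.6 and 15.4 at day 2), and none was merged. Folds against groups without counts use a floor of 3 counts over the group, and intervals on counts are exact at 95% and cover counting error only.

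Named genes were Ago2, 10 lineage genes, the 12 largest rises and falls among called genes of at least 5 CPM without overlap, the 10 most abundant called genes in each direction, called members of 40 lists, and up to 3 further members of each by smallest p or by role. Predicted genes were counted and not named. A few genes covered by this rule are not reported here. Genes of the chromosome 10 stretch were chosen after their values were seen. The comparison, members and lists were chosen with earlier results of these data known. Coordinates and 3′ UTRs came from GENCODE M21 (GRCm38). Alternatives were DESeq2 size factors, DESeq2 1.42.0, no expression filter, a block for the replicate number, a 2-fold threshold, the day 2 libraries alone, and leaving out each library, where the lone library of a group is assumed to vary like the others. The pipeline was tested on simulated data.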

Additional observations from a re-analysis of the deposited data

How the results depend on the processing

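Against 288 calls (137 higher, 151 lower), DESeq2 gave 611 (300 and 311), no expression filter 1094 (551 and 543) and the day 2 libraries alone 1440 (723 and 717). Counts within 1.5 times of 288 came from DESeq2 size factors (294), the 2-fold threshold (233) and the replicate block (249, with 118 higher and 131 lower). Leaving out 1 library left 49 to 105 calls, with 11 to 52 higher and 31 to 74 lower. Fits chosen after seeing the data used the libraries of days 1 and 2 (857 calls, 413 and 444), of days 2 and 3 (67 calls, 22 and 45) and of days 1, 2 and 4 (726 calls, 358 and 368). Chi-square values between replicates, divided by the degrees of freedom, were 15.9 to 47.4 on the other days against 12.6 and 15.4 at day 2. This value grows with the number of counts, which differed between libraries, so it does not rank all days by their spread. Wild-type libraries of day 3 (38.4) and libraries of day 4 (16.2 in wild type, 22.1 in knockout) had higher values with fewer counts than those of day 2. For Ago2 the log2 fold change was -1.75 with days 2 and 3, no longer called, and ranged from -2.07 to -1.48 on leaving out 1 library (adjusted p 0.0306 to 0.0930). It was also not called without wild-type library 1 or knockout library 1, and was called in the other settings run. None of the 78 named genes that were called changed direction under the settings run. Over all genes, deviations of same-numbered libraries of the 2 genotypes correlated with an r of 0.0755 at day 2 and -0.0794 to 0.391 on the other days. A low r over all genes does not show that the libraries are unpaired, since some lists can still move together. At day 2 the median of replicate 1 minus replicate 2 was -0.66 in wild type and -0.54 in knockout for Hox genes. For the stress response list it was -0.19 and 0.39, in opposite directions. The replicate block kept 235 of the 288 calls and 66 of the 78 named ones. The 12 named calls it ended were Gata6, Notum, Gtf2i, Tubb2b, Gja1, Utrn, Ddc, Tspan32, Prom1, Stk31, Tex101 and Slc39a8, with adjusted p of 0.0519 to 0.0652. Low counts limit what can be said of genes under about 1 CPM.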
